A study of Mus musculus with 6 samples.

Results

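The genes examined were Igfbp5 and other members of the insulin-like growth factor (IGF) axis in mouse pancreatic cancer cells with and without Brca2 knockdown. The set comprised 10 genes, namely 6 IGF binding proteins (Igfbp5, Igfbp2, Igfbp3, Igfbp4, Igfbp6 and Igfbp7), 3 receptors (Igf1r, Igf2r and Insr) and 1 receptor substrate (Irs1). The set was selected on the fold change of Igfbp5, which was much higher in the knockdown cells, so the values of Igfbp5 are given as a description with no test. The other genes were taken by name, with results of the same contrast known. Of the 10 genes, 9 were among the 10616 genes of the count table, and Igfbp2 was not analysed here. The cells were KPC cells, a line from mouse pancreatic ductal adenocarcinoma, cultured in growth medium and sorted for live cells, 10000 per library. The shBrca2 group (3 libraries) carried a lentiviral short hairpin RNA against Brca2, and the shControl group (3 libraries) carried a non-targeting hairpin in the same vector type. Both groups were selected with puromycin, and whether each is a pool or a single clone is not given in the sources used here. The labels do not say whether the libraries of a group came from separate cultures, so p-values measure the spread between these libraries, which may be technical.

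IGF binding proteins are secreted proteins that hold IGF1 and IGF2 in tissue fluid and on the matrix, and so set how much ligand reaches the type 1 IGF receptor (Igf1r). That receptor and the insulin receptor (Insr) are tyrosine kinases that phosphorylate Irs1, which passes the signal to the PI3K and AKT pathway, while Igf2r carries IGF2 to the lysosome for breakdown. IGFBP5 binds matrix as well as ligand and is cleaved by secreted proteases, and pancreatic cancer cells are known both to make binding proteins and to respond to IGF.

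Promoter sequences are shown for the 4 binding protein genes whose libraries separated by group, because their levels moved in different directions. Each is the 250 bases before a transcript start in RefSeq on GRCm38.p6, which is the mm10 build named in the submitters' processing notes, and each is written 5′ to 3′ on the strand of the gene. The windows are chr1:72874866-72875115 on the minus strand for Igfbp5, chr11:99040994-99041243 on the plus strand for Igfbp4, chr5:77408046-77408295 on the minus strand for Igfbp7 and chr11:7213924-7214173 on the minus strand for Igfbp3. The windows of Igfbp4 and Igfbp3 precede a transcript start that lies inside the annotated gene. Capitals mark matches to any of the 6 motifs searched.
Igfbp5: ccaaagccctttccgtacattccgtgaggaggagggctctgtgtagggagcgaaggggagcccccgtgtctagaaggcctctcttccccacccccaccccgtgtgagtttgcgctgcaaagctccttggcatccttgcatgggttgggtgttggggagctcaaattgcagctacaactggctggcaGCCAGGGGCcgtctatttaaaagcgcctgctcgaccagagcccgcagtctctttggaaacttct
Igfbp4: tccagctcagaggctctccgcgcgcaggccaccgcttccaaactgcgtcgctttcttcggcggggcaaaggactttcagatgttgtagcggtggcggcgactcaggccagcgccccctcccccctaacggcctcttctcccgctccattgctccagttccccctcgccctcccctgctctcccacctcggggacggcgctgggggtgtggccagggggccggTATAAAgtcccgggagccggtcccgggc
Igfbp7: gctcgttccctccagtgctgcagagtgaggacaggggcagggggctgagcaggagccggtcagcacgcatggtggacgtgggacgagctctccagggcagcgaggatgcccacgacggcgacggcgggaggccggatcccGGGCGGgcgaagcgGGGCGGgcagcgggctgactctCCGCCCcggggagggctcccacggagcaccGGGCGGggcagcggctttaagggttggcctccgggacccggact
Igfbp3: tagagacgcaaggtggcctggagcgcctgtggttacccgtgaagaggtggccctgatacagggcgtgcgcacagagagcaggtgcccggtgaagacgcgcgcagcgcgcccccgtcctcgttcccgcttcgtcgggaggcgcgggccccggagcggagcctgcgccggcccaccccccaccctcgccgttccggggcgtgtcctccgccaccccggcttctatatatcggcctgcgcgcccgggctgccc
The letters GCCNNNGGC, an AP-2 motif that reads the same on both strands, occurred once in the Igfbp5 window, starting 64 bases before the transcript start, and in 13.7% of the 32851 promoter windows of this length. The TATA box letters TATAAA occurred once in the Igfbp4 window, starting 28 bases before the transcript start, and in 12.4% of all windows. The Igfbp7 window held 4 matches to the Sp1 letters GGGCGG on either strand. At least a single match occurred in 32.7% of all windows, and the share of windows with 4 was not counted. The Igfbp3 window held no match to any of the motifs. The other letters searched on both strands were CCAAT (33.8% of windows), the FoxO letters TGTTTAC (3.17%) and the C/EBP letters TTGCNNAA (9.56%), and no match in the printed windows overlapped another motif. These matches describe letters and are not evidence of binding.

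Libraries held from 1519340 to 2452467 counts. Brca2, the target of the hairpin, had raw counts of 10, 11 and 14 in shBrca2 and 33, 52 and 33 in shControl. Brca2 overlaps Gm25284, Gm23641 and Gm42529 in RefSeq, so its count is uncertain. Of 10 ductal epithelial markers, 9 were in the table, with Krt19 at a mean of 4227 normalized counts and Epcam at only 6.52. Their summed level was 8618 to 9428 CPM (counts scaled to a common library total) in shControl and 8306 to 8612 in shBrca2, and Krt7 and Sox9 (both at a log2 fold change of 1.2) were called higher by the rule given below. Of 11 fibroblast markers, Col1a2 and Thy1 were in the table, with a summed level of 6.85 to 20.03 CPM in shControl and 8.56 to 10.9 in shBrca2. Cd68 was the only 1 of 8 immune markers in the table, Cela1 and Prss2 were the only 2 of 8 acinar markers, and 0 of 5 endothelial and 0 of 6 endocrine markers were in it. The part of any of these in the results below was not tested.

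Igfbp5, on whose log2 fold change the set was chosen, lies on chromosome 1 (72858065 to 72874865, minus strand, GRCm38.p6) and overlaps no other gene in RefSeq. Its normalized counts, which are raw counts divided by the DESeq2 size factor of each library, were 34.4, 39.4 and 39.6 in the shControl libraries and 189, 221 and 233 in the shBrca2 libraries. The lowest shBrca2 library was thus far above the highest shControl library. The means were 37.8 ± 2.96 (SD, n = 3) and 215 ± 22.7 (SD, n = 3), and the log2 fold change of shBrca2 over shControl was 2.51 ± 0.24 (SE), a ratio of 5.69. The spread of Igfbp5 between the shControl libraries, a coefficient of variation of 7.84%, was below the 16.3% that Poisson counting alone would give at this mean. In shBrca2 it was 10.6%, against 6.83% from counting alone. Whichever single library was left out, the log2 fold change lay between 2.45 and 2.59. That range describes the gene that chose the set and is not a test of it.

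The 3 most abundant binding protein genes were lower in shBrca2, where Igfbp5 was higher. Igfbp4 encodes a binding protein that mostly withholds IGF from its receptor until a protease cuts it. It had 4275, 3495 and 3154 normalized counts in shControl and 2592, 2353 and 2448 in shBrca2. The groups did not overlap, and shControl replicate 1 stood above the other 2 control libraries. Igfbp4 fell by 0.56 ± 0.15 on the log2 scale (SE, n = 3 per group), and its adjusted p over all genes was 0.0224 (DESeq2 likelihood ratio test). To be called, a gene needed a mean normalized count over 5, a log2 fold change beyond 0.5 in either direction and an adjusted p under 0.1. The call depended on single libraries, as 4 of the 6 fits that each left out 1 library lost it. The adjusted p by DESeq2 was 0.117 without shControl replicate 1, 0.139 without shControl replicate 2, 0.136 without shBrca2 replicate 2 and 0.167 without shBrca2 replicate 3, with a log2 fold change between -0.66 and -0.43 over the 6 fits. The edgeR quasi-likelihood test gave -0.56 with an adjusted p of 0.114, and with all 6 libraries the adjusted p ranged from 0.000106 to 0.114 over the alternatives.

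Igfbp7 encodes a secreted protein related to the IGF binding proteins that binds IGF weakly and lies in the vascular matrix. Its normalized counts were 2406, 2124 and 2095 in shControl and 1704, 1645 and 1516 in shBrca2. Every shBrca2 library was below every shControl library. At a log2 fold change of -0.45 ± 0.14 (SE) and a DESeq2 adjusted p of 0.0827, it passed the limit on p but not the limit on fold change. Leaving out any single library took the adjusted p by DESeq2 above the limit, to between 0.136 and 0.305. The gene overlaps Polr2b and Gm34648 in RefSeq, and as the strand setting of counting is not given in the sources used here, its count is uncertain.

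Igfbp3 encodes the main IGF carrier of blood and is a known p53 target. It had 403, 365 and 345 normalized counts in shControl and 268, 283 and 251 in shBrca2. Again the groups did not overlap. The log2 fold change was -0.47 ± 0.17 (SE), and it did not pass the test (adjusted p = 0.214 by DESeq2), with a 95% interval from -0.80 to -0.14. Igfbp6, which prefers IGF2 as ligand, had raw counts of only 9, 5 and 3 in shControl and 3, 9 and 7 in shBrca2. No difference in Igfbp6 passed the test (log2 fold change 0.23, 95% interval -1.41 to 1.87, DESeq2 adjusted p = 0.986), and the interval is wide in both directions.

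Of the 9 genes, 2 were called, Igfbp5 and Igfbp4, against 1.27% of the 9997 genes with an adjusted p. Igfbp5 was counted there by the choice of the set, so only Igfbp4 adds to the count, and 0.50% of genes were called lower. The libraries of 4 of the 9 genes did not overlap between the groups, against 20.3% of all listed genes. These were Igfbp5, again by the choice of the set, and, lower in shBrca2, Igfbp4, Igfbp7 and Igfbp3, a direction seen without overlap in 10.1% of listed genes. Apart from Igfbp5, 3 of the other 8 genes (Igfbp4, Igfbp7 and Igfbp3) had an unadjusted p under 0.05 by DESeq2, as did 8.33% of all genes. The other members were taken with results of this contrast known, so none of these counts is independent evidence. The edgeR test, which called 1.33% of the genes it tested, called Igfbp5 alone here, and nothing is read from that count because Igfbp5 chose the set.

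**Figure D1:**
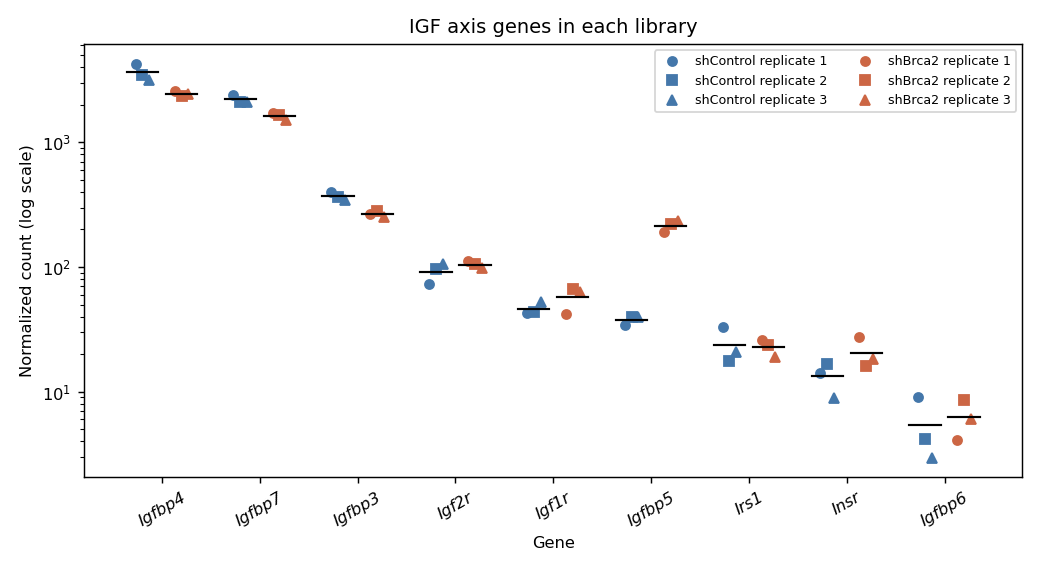
Normalized count of each of the 9 genes (log axis) in each library, with shControl in blue, shBrca2 in orange, a marker shape per replicate and a black bar at the group mean (n = 3). Igfbp5 moved from 34.4 to 39.6 in shControl to 189 to 233 in shBrca2, while Igfbp4, Igfbp7 and Igfbp3 were lower in every shBrca2 library.

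**Figure D2:**
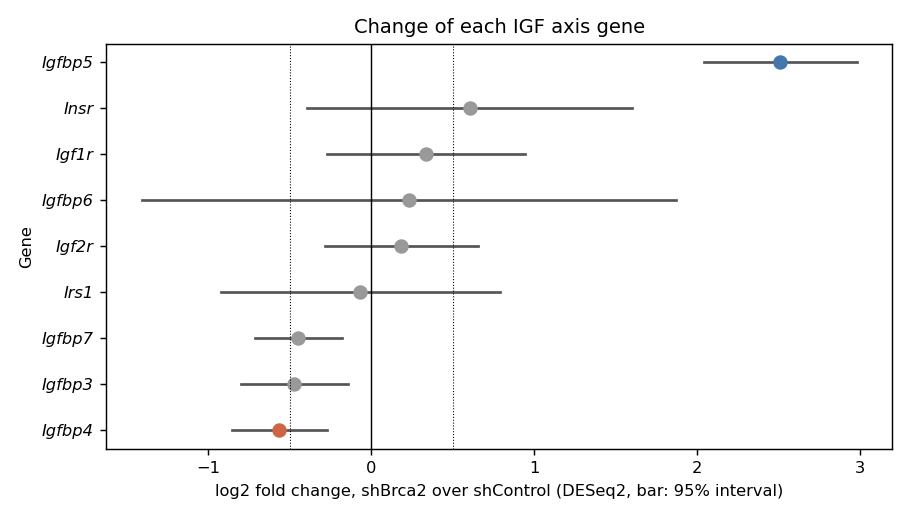
Log2 fold change of shBrca2 over shControl for each gene from DESeq2, with bars for the 95% interval and dotted lines at the limits of 0.5 in either direction. Igfbp5 (blue, 2.51) was described without a test, Igfbp4 (orange, -0.56) was called, and the other genes (grey) were not.

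In CPM, which is relative to the library total, the lower values of the abundant genes outweighed the higher value of Igfbp5. Of these abundant genes only Igfbp4 was called, and not in every fit, and the sum was not tested. Levels of different genes are compared here in CPM of the whole library without division by length. In 3′ end counting, reads come from the end of a transcript whatever its length. Whether repeated reads of the same molecule were merged is not given in the sources used here, so such comparisons are approximate. Igfbp4 was 1759 ± 234 CPM in shControl and 1193 ± 59.0 in shBrca2 (SD, n = 3), a difference of -566 CPM. Igfbp7 differed by -283 CPM and Igfbp3 by -50.0 CPM, while Igfbp5 differed by 85.6 CPM. The summed level of the 5 binding protein genes was 3363, 2931 and 2790 CPM in the shControl libraries and 2299, 2175 and 2171 CPM in the shBrca2 libraries. The shBrca2 mean was thus 73.1% of the shControl mean. Igfbp7, whose count is uncertain, made up a mean of 35.4% of the sum in each group. The sum is of RNA and does not measure protein.

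Within that sum, Igfbp5 took a larger share in shBrca2, which follows from the choice of the set, and Igfbp4 a smaller one. Shares add to a fixed total, so the larger share of Igfbp5 by itself lowers those of the other genes. Igfbp5 made up 0.482%, 0.654% and 0.702% of the sum in shControl and 3.98%, 4.90% and 5.24% in shBrca2. The share of Igfbp7 was 35.4 ± 1.71% in shControl and 35.4 ± 1.26% in shBrca2 (SD, n = 3), and that of Igfbp3 was 5.94 ± 0.251% and 5.85 ± 0.360%. The shares of Igfbp7 and Igfbp3 differed by less than the spread between libraries. Igfbp4 made up 58.0 ± 2.01% of the sum in shControl and 53.9 ± 1.49% in shBrca2 (SD, n = 3). The ratio of Igfbp4 to Igfbp5 counts moved from 97.6 ± 23.6 to 11.6 ± 1.81 (SD, n = 3), which also reflects the choice of the set by Igfbp5.

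**Figure D3:**
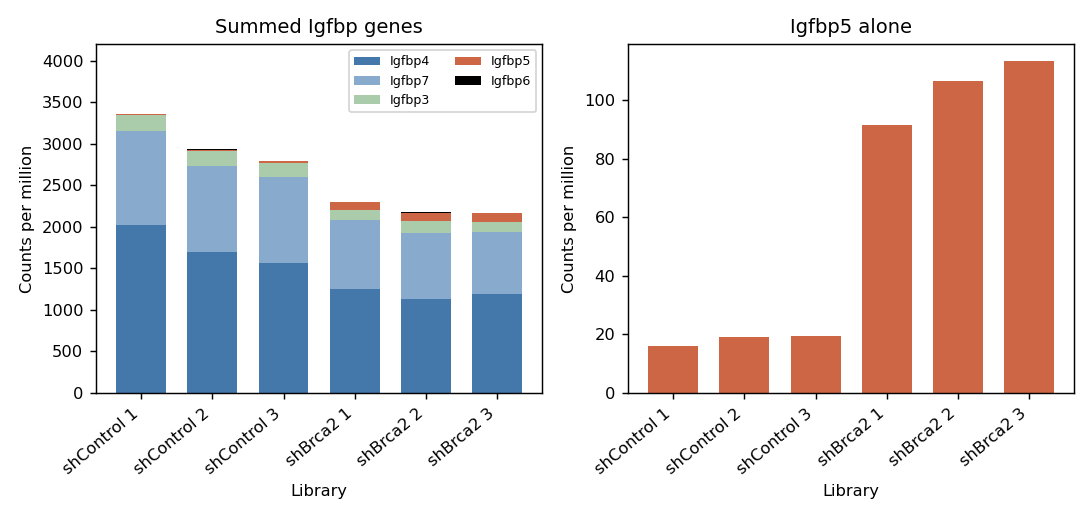
Left, summed level in CPM of the 5 Igfbp genes in each library, stacked by gene, and right, Igfbp5 alone on its own axis. The sum was 2790 to 3363 in shControl and 2171 to 2299 in shBrca2, while Igfbp5 alone was 16.2 to 19.6 and 91.5 to 114.

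Ordered by CPM in shControl, the genes ran Igfbp4, Igfbp7, Igfbp3, Igf2r, Igf1r, Igfbp5, Irs1, Insr and Igfbp6. Igfbp5 had rank 6 there, at 18.3 ± 1.83 CPM (SD, n = 3), just under Igf1r at 22.4 ± 3.13 CPM. No neighbours in this order overlapped in their library ranges. In shBrca2 Igfbp5 had rank 4, at 104 ± 11.3 CPM, under Igfbp3 at 129 ± 6.88 CPM and above Igf2r at 50.7 ± 3.24 CPM. The order of the other genes was the same, and only Irs1 and Insr overlapped in shBrca2.

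None of the receptors or the substrate was called. Igf1r, the main signalling receptor of the axis, had 42.4, 43.6 and 52.4 normalized counts in shControl and 42.2, 67.1 and 63.5 in shBrca2. The groups overlapped because shBrca2 replicate 1 was at the control level. The log2 fold change of Igf1r was 0.34 ± 0.31 (SE), with a 95% interval from -0.27 to 0.94 (DESeq2 adjusted p = 0.876). Igf1r overlaps Gm51488 and Gm51487 in RefSeq, so its count is uncertain. Igf2r had 73.8, 95.6 and 106 normalized counts in shControl and 112, 105 and 97.5 in shBrca2. Its log2 fold change was 0.19, with a 95% interval from -0.29 to 0.66 (DESeq2 adjusted p = 0.931). Igf2r overlaps Airn, the noncoding RNA of this imprinted locus, so its count is uncertain.

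The insulin receptor and Irs1 were low. Insr had raw counts of 14, 20 and 9 in shControl and 20, 17 and 21 in shBrca2, with a log2 fold change of 0.60 and a 95% interval from -0.39 to 1.60 (adjusted p = 0.855 by DESeq2). Irs1 had raw counts of 33, 21 and 21 in shControl and 19, 25 and 22 in shBrca2, with a log2 fold change of -0.07 and a 95% interval from -0.92 to 0.79 (adjusted p = 0.989 by DESeq2). These intervals reach past 0.5 in at least 1 direction, so they do not exclude a change of the size of the call limit in either gene. Between the shControl libraries, Irs1 had a coefficient of variation of 34.8%, against 20.5% from Poisson counting alone.

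The difference of Igfbp5 was not shared by the listed genes around it. Igfbp2 ends 5.59 kb from Igfbp5 and was not analysed here. The nearest listed genes were Rpl37a (144 kb away) and Xrcc5 (463 kb) on one side and Tns1 (1035 kb) and Rufy4 (1250 kb) on the other. Their log2 fold changes lay between -0.26 (Rufy4) and 0.24 (Tns1), and none was called. Rufy4 and Tns1 were low, with mean normalized counts of 5.94 and 15.6, and their fold changes had an SE of 0.84 and 0.53. Igfbp4 (chromosome 11, 99040005 to 99052655, plus strand) lies between Top2a, 15.8 kb away with a log2 fold change of -0.16, and Tns4, 13.02 kb away. Tns4, which encodes a focal adhesion protein, was called in the opposite direction to Igfbp4 (log2 fold change 1.29, DESeq2 adjusted p = 0.0141). It had 24.7 ± 0.454 normalized counts in shControl and 60.7 ± 2.67 in shBrca2 (SD, n = 3). Further out, Rara (65.1 kb away) was lower in shBrca2, as Igfbp4 was, and its groups did not overlap. Rara was not called (log2 fold change -0.64, DESeq2 adjusted p = 0.400). Smarce1 (156 kb away) differed by 0.34 on the log2 scale and was not called.

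Dio3, Tm4sf4, Il17re and Dhrs3 were among the 5 genes whose profile over the 6 libraries was most like that of Igfbp5. Likeness was measured as the root mean square difference of log2(normalized count + 1) after centring each gene, over 7795 genes with a mean of at least 20. It was 0.37 for Dio3, 0.52 for Tm4sf4, 0.52 for Il17re and 0.57 for Dhrs3. Dio3, which encodes a deiodinase that inactivates thyroid hormone, had 4.04, 5.03 and 4.94 normalized counts in shControl and 42.2, 46.3 and 64.4 in shBrca2. Since Igfbp5 separates the groups, this measure picks genes that also do.

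The rest of the pathway was examined in 11 lists with 141 genes, of which 103 were in the table. Of these, 0 were called higher and 3 lower, against 0.77% and 0.50% of all genes tested, and the median log2 fold change was -0.03, against -0.00034 for all genes. The ligands and carriers (Igf1, Igf2, Ins1, Ins2, Igfals, Igfbp1 and Igfbpl1) had 0 of 7 genes in the table and were not analysed here.

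All 3 called genes were among the binding partners of IGFBP5 outside the IGF system, of which 5 of 6 were in the table. Their decreases were in part known when the list was drawn up, so the count is not independent evidence. Of the 3, Fn1 and Thbs1 are described. Fn1, which encodes fibronectin, had 317 ± 34.0 and 171 ± 11.3 normalized counts (SD, n = 3) and fell by 0.89 ± 0.18 (SE) on the log2 scale (DESeq2 adjusted p = 0.000524). Thbs1, which encodes thrombospondin 1, had 18.2 ± 5.02 and 3.48 ± 1.84 normalized counts (SD, n = 3). Thbs1 fell by 2.31 ± 0.70 (SE) on the log2 scale (DESeq2 adjusted p = 0.0678) but was called in 0 of the 4 fits without a library that gave it an adjusted p, which ranged from 0.146 to 0.310. Spp1 encodes osteopontin and was the most abundant of these genes, with 6775 ± 1631 normalized counts in shControl and 5370 ± 108 in shBrca2 (SD, n = 3). Its groups overlapped, and it was not called (log2 fold change -0.34, adjusted p = 0.571 by DESeq2). Of the alternative fits, only that without shControl replicate 1 called Spp1 (log2 fold change -0.50, adjusted p = 0.0427 by DESeq2). Without shControl replicate 3 the log2 fold change was -0.16.

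Among proteases that cut IGF binding proteins and their inhibitors, 8 of 19 genes were in the table and 0 were called. Ctsd, a lysosomal protease and the most abundant of them, had a log2 fold change of 0.04. Htra3, a secreted serine protease, had the smallest p, with raw counts of 0, 1 and 2 in shControl and 4, 6 and 9 in shBrca2, and DESeq2 gave it no adjusted p because its mean count was under the independent filter. Of the proteins that share the IGF binding domain, 4 of 9 were in the table and 0 were called, with log2 fold changes of -0.33 for Ccn1 and -0.18 for Ccn2. The 3 genes that encode binding proteins of Igf2 mRNA were in the table and 0 were called, with the largest difference in Igf2bp1 (-0.46, adjusted p = 0.483 by DESeq2). As 1.27% of all genes tested were called, 0 calls in lists this short says little about them.

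Downstream of the receptors, 0 genes were called among 13 adaptors and phosphatases, 14 genes of the PI3K and AKT arm, 15 of the mTOR arm, 19 of the RAS and MAPK arm and 14 FoxO genes and targets in the table. Over all genes tested 1.27% were called, so 0 calls in lists of these sizes says little about the arms. Among the adaptors, Rack1, the most abundant, differed by 0.17 and Sh2b1, which had the smallest p, by -0.37 on the log2 scale. Akt1, the most abundant gene of its arm, had a log2 fold change of -0.25, Gsk3a, a kinase that AKT inhibits, one of -0.33, and Eif4ebp1, a translation repressor that mTOR phosphorylates, one of -0.17. Deptor, which encodes an inhibitor of mTOR, came nearest to a call, with 23.2 ± 3.94 normalized counts in shControl and 50.2 ± 4.18 in shBrca2 (SD, n = 3). Its log2 fold change was 1.10 ± 0.35 (SE, DESeq2 adjusted p = 0.12), and it was called by edgeR (adjusted p = 0.0611). It was called in 0 of the 6 fits that each left out 1 library. Phlda1, the most abundant gene of the RAS and MAPK list, differed by -0.12 on the log2 scale. Spry4, a feedback inhibitor of receptor tyrosine kinase signalling, had 40.1 ± 4.43 and 72.8 ± 11.5 normalized counts (SD, n = 3, DESeq2 adjusted p = 0.191). The edgeR test called it as well (adjusted p = 0.0974), the only 1 of 7 alternatives with all 6 libraries to do so. Spry4 was called in 0 of the 6 fits that each left out 1 library. Txnip, an arrestin-like protein that restrains glucose uptake, differed by 0.54 on the log2 scale (DESeq2 adjusted p = 0.188).

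Of 12 transcription factors listed for the Igfbp5 promoter (AP-2, C/EBP, NFI, Myb and Runx2 factors), 8 were in the table and 0 were called. With 1.27% of all genes tested called, 0 calls in a list this short says little. Tfap2a, an AP-2 factor, differed by -0.46 ± 0.62 (SE) on the log2 scale, and Cebpb, the most abundant, one of -0.20 ± 0.18 (SE). Nfic had the smallest p of these, at -0.38 (DESeq2 adjusted p = 0.852).

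**Figure D4:**
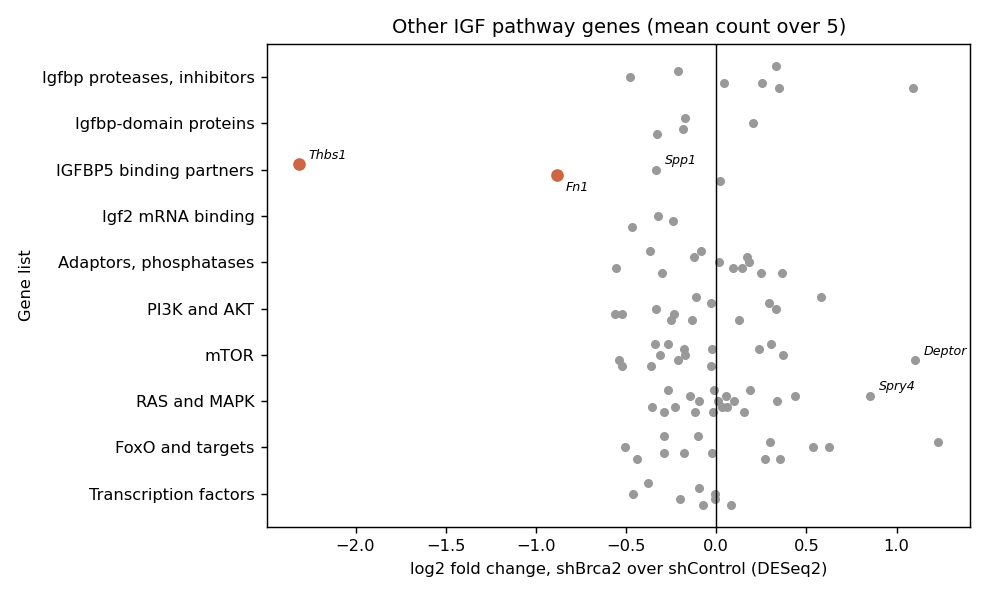
Log2 fold change of shBrca2 over shControl for the other pathway genes with a mean normalized count over 5, a point per gene and a row per list, with called genes in orange and 1 called gene not drawn. Thbs1 (-2.31) and Fn1 (-0.89) were called, and Deptor (1.10), Spry4 (0.85) and Spp1 (-0.34) are named as uncalled genes.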

How the data were processed

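As the labels and methods describe, poly(A) RNA of sorted KPC cells was made into 3′ end libraries by a variant of MARS-seq. The deposited values are raw counts per gene symbol, which the authors neither normalized nor pooled. The submitters' processing notes name bcl2fastq, cutadapt, STAR 2.4.2a, HTSeq, DESeq2 and mm10; annotation, strand setting and molecular identifiers are not given in the sources used here, so counting errors cover counting alone. Every listed gene reached 6 counts in some library, and others were not analysed here.

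DESeq2 1.42.0 (R 4.3.3) was fitted to all 10616 genes scaled by its median-of-ratios factors, group was tested by likelihood ratio, and p-values were Benjamini-Hochberg adjusted over all genes that passed its independent filter (9997). Test and thresholds follow the study's methods. Intervals are the fold change ± 1.96 SE. Depth ranged from 1519340 to 2452467 counts. Alternatives were edgeR 4.0.16, a Wald test, other scalings, filters and call limits, 1 surrogate variable (sva 3.50.0), and each library left out. Scripts were tested on simulated data.

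The text names Brca2, the members, and from each list the called genes, the most abundant gene and the uncalled gene with the smallest p, plus the 5 genes most like Igfbp5, except that a few genes under this rule are not reported here. Neighbouring genes were chosen by position, and Tfap2a for its motif after its value was seen. The members and lists were chosen with earlier results of these data known. Positions and promoters are from RefSeq on GRCm38.p6, where 9 of the 10 genes had a promoter entry.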

Additional observations from a re-analysis of the deposited data

How the results depend on the processing

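No paired analysis was possible because no label pairs a shBrca2 library with a shControl library by number. Of the 9 genes, 2 were called, and 1 (Igfbp5) by edgeR and in 4 of the fits named beside Igfbp4, giving 1 to 2 over the 6 fits that each left out 1 library. With no fold change minimum 3 were called, Igfbp7 being the third. Of the other pathway genes 3 were called, 5 by edgeR (with Deptor and Spry4 added) and 1 to 3 with a library left out, the fewest without shBrca2 replicate 3. Deptor was also called with TMM size factors, total count size factors and the filter of at least 10 counts in 3 libraries, with adjusted p-values by DESeq2 of 0.0924, 0.0971 and 0.097. It was not called by the DESeq2 Wald test (adjusted p = 0.113). By the DESeq2 likelihood ratio test it was not called without independent filtering (0.128) or with 1 surrogate variable (0.141). Leaving out any single library gave Deptor an adjusted p by DESeq2 between 0.249 and 0.359. Over all genes 127 were called, and 47 to 140 with a library left out, the fewest without shBrca2 replicate 3, then 55 without shControl replicate 2, and 81 with shBrca2 replicate 1 left out. The log2 fold change of Brca2 was -1.70 to -1.46 in those fits, and the call was lost in 3 of them. The summed binding protein level in shBrca2 was 70.4% to 77.4% of that in shControl with a library left out, the highest without shControl replicate 1. Among single genes other than Brca2, 379 of 402 comparisons kept direction and call, 11 lost the call, 6 gained one and 6 changed direction. The total includes Igfbp5 and many genes far from a call, which were likely to stay uncalled, so it does not measure how stable the calls are. Those that changed direction were near 0, with Ccn2 at 0.033 under 1 surrogate variable, Irs1 from -0.25 to 0.25, Ctsd from -0.064 to 0.14 and Phlda1 from -0.24 to 0.11 with a library left out. The cause was not tested. Counts of Insr, Irs1, Igfbp6 and Htra3 were low.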
